A study of Mus musculus with 8 samples.

Results

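The response of common monocyte progenitors (cMoPs) to the Notch ligand DLL1 was measured by RNA sequencing in 4 of the 8 libraries of the series. The cMoPs, dividing bone marrow cells that give rise to monocytes, came from wild-type mice and were sorted, then kept for 6 h on OP9 cells, stroma derived from mouse bone marrow, or on OP9-DLL1 cells, the same line expressing DLL1. Libraries were chosen by their labels, 2 on OP9 and 2 on OP9-DLL1, and every one of the 13374 genes tested was compared between them. The other 4 libraries held Ly6C+ classical monocytes, also from wild-type bone marrow and also kept for 6 h on OP9 (2 libraries) or OP9-DLL1 (2 libraries). They contributed to the estimate of spread and are used below to show where the progenitors differed. Genotype, stromal contact and its length were shared by all groups, so the comparison is between stroma with and without the ligand, on 1 stromal line. The labels give neither the animals behind each replicate number nor the way cells were separated from stroma. Each p-value therefore reflects spread among these libraries alone, and that spread may be technical.

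Notch receptors are membrane proteins that are cut after binding a Delta or Jagged ligand on a neighbouring cell. The last cut, made by the gamma-secretase complex, frees the intracellular part, which joins the DNA-binding protein RBPJ and a Mastermind coactivator to switch on genes such as Hes1. In the monocyte lineage, Notch2 signalling is known for its part in forming nonclassical monocytes, the Ly6C-low cells that patrol vessel walls, and the title of the series ties Bcl6 and Irf2 to the same step.

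Depth recovered from the deposited values was 51566715 to 62459962 reads in the 4 cMoP libraries, where 1 read was worth 0.0151 to 0.0183 CPM (CPM is reads per 1000000 of the effective library size). Replicates were more than 2-fold apart for 724 genes on OP9 and 804 genes on OP9-DLL1, against 1445 genes between the OP9 monocyte libraries. The labelled cell type was checked against its markers. Ly6c2 was at 2065 to 2314 CPM, the growth factor receptor Csf1r at 197 to 271 CPM, Cd34 at 138 to 159.6 CPM, Kit at 4.70 to 8.97 CPM and the granule enzyme Mpo at 3591 to 5277 CPM, so each was present in all 4 libraries. Flt3 is not analysed here. Among markers of other cells, all 14 stroma genes tested summed to 376 and 343 CPM on OP9 and 253 and 230 CPM on OP9-DLL1. Without Thbs1, S100a6, Acta2 and Vcam1, the other 10 summed to 2.03 and 4.02 CPM on OP9 and 4.14 and 2.92 CPM on OP9-DLL1. Those 4 genes, which the planned list did not set apart, held most of the full sum. Single genes of the 10 varied within groups, such as Sparc, at 0.0151 and 0.566 CPM on OP9 and 1.21 and 0.0169 CPM on OP9-DLL1. The 8 granule genes of later neutrophils summed to 107 and 194 CPM on OP9 and 109.8 and 179 CPM on OP9-DLL1, higher in replicate 2 of both groups. Ighm and Cd79b, the B cell markers tested beside Cd22, summed to 253 and 256 CPM on OP9 and 242 and 259.7 CPM on OP9-DLL1.

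On OP9-DLL1, 103 of the 13374 genes changed (0.77% of those tested; limma-trend, Benjamini-Hochberg adjusted p under 0.05). Of these, 62 rose (0.464%) and 41 fell (0.307%). Before adjustment, p was under 0.05 for 701 higher and 566 lower genes of the 13374. Counts for the gene lists below are to be set beside these values for all genes tested. The median log2 fold change of all genes tested was 0.01. In each of the 103 genes both libraries on 1 stroma lay above both on the other, a pattern also seen in 25.0% of all genes tested in the higher direction and in 21.7% in the lower. Log2 fold changes of the genes that rose ran from 0.60 to 10.33, with 24 genes at 4-fold or more, and those of the genes that fell ran from -6.48 to -0.67, with 16 genes at 4-fold or more. In bulk RNA, fewer cells of a type and less RNA per cell cannot be told apart.

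Of the 103 genes, 22 kept the call whichever cMoP library was left out: Spic, AW011738, Ciita, Gm19951, Hes1, Cd22, Pla2g7, F11r, Jaml, Il1r2, I830077J02Rik, Nxpe4, Gm14548, Marcks and Gpr35, which rose, and Adam8, Slc39a14, C3ar1, Pid1, Spp1, Ccl4 and Ccl2, which fell. In Spic, AW011738, Ciita and Gm19951 both OP9 libraries had 0 reads, so leaving out 1 of those could hardly move the OP9 mean. Ciita and Gm19951 stayed under 1 CPM in every cMoP library. They met the filter of 1 CPM in 2 libraries through monocytes. The calls of 48 genes ended under each of the 4 omissions, and for the genes described below whose call ended the libraries are named. Leaving out either OP9-DLL1 monocyte library, which enters through the shared spread, ended 44 of the calls, and 0 of these 44 were among the 22. A fit of the 4 cMoP libraries alone called 315 genes, 208 higher (1.56%) and 107 lower (0.8%), among them 96 of the 103. With plain library totals in place of the authors' effective sizes 8 of the 103 did not pass (Ccl24, Dusp6, Tagap, Slc11a1, Ccdc28b, Gpr65, Trem3 and Ms4a4a).

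**Figure D1:**
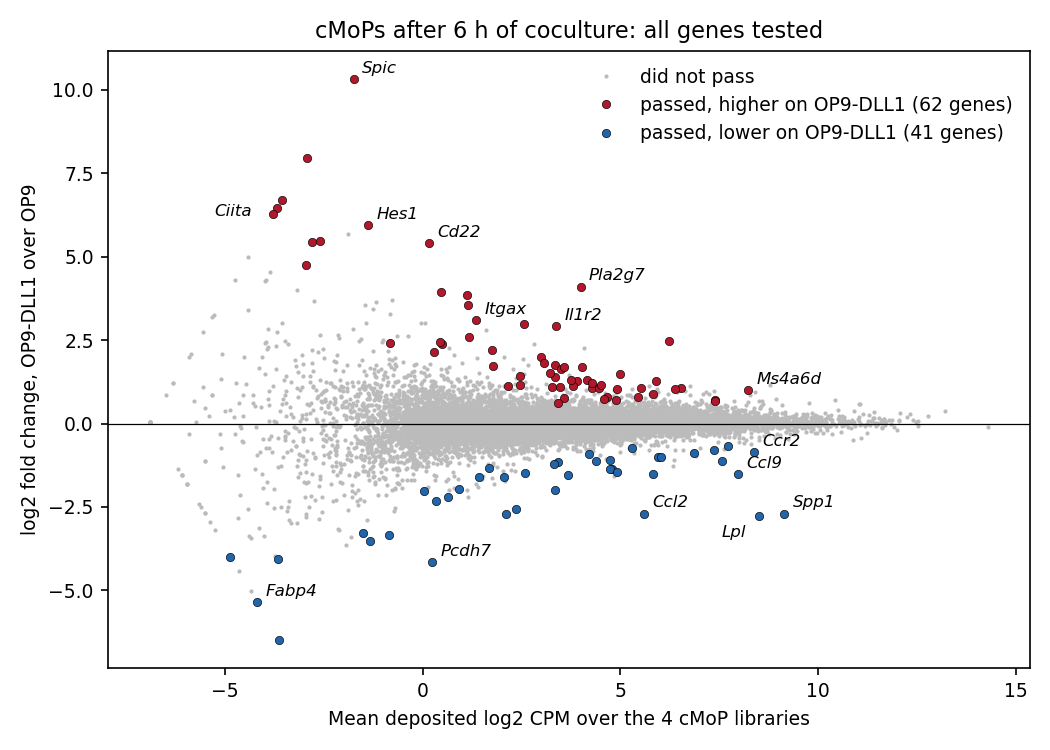
Log2 fold change (OP9-DLL1 over OP9, vertical axis) against the mean deposited log2 CPM of the 4 cMoP libraries (horizontal axis) for all 13374 genes tested, with the 62 genes that rose in red, the 41 that fell in blue and the rest in grey. The genes that passed range from weakly detected ones such as Ciita and Fabp4, at the left, to Spp1, with a mean of 1456 CPM on OP9, at the right.

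**Figure D2:**
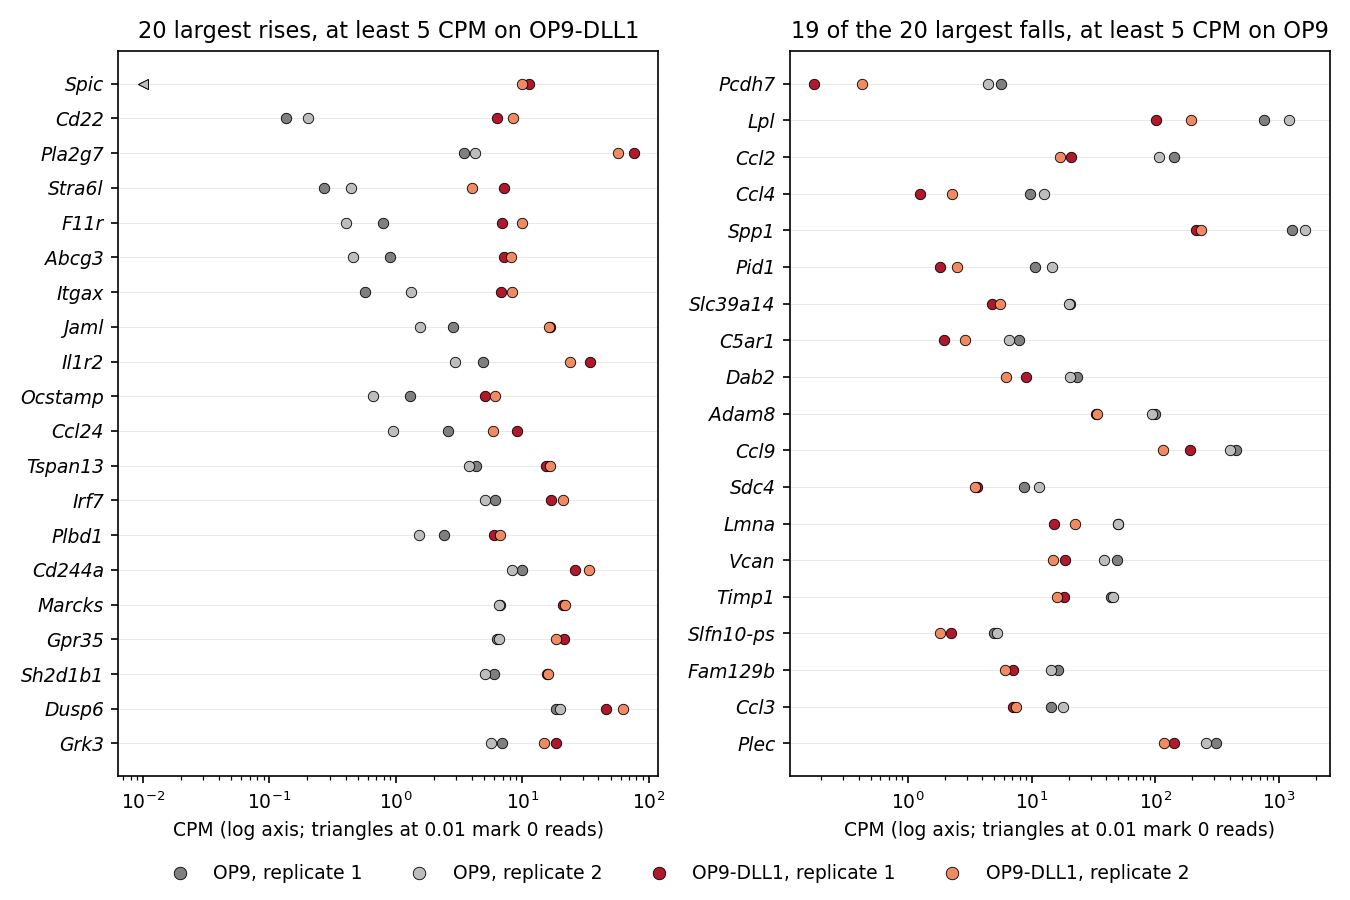
CPM in each of the 4 cMoP libraries (logarithmic axis) for the 20 largest rises (left) and 19 of the 20 largest falls (right) among passing genes whose higher group averaged 5 CPM or more, predicted gene models left out. Grey points are OP9 libraries, red and orange points OP9-DLL1 libraries, and triangles mark 0 reads; in each gene the 2 grey points lie on 1 side of the 2 coloured points.

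Notch target genes are the usual readout of receptor activity and were read first. Hes1, a transcriptional repressor and direct Notch target (chromosome 16, 30064384 to 30067796), was at 0.0453 and 0.0365 CPM on OP9 and 2.92 and 3.12 CPM on OP9-DLL1, which is 5 reads against 351 (log2 fold change 5.94 ± 0.58, limma-trend adjusted p = 0.00154). Both OP9 libraries were near 0 and both OP9-DLL1 libraries near 3 CPM. Of 11 Notch target genes tested, Hes1 was the 1 that rose and Snai1, a repressor of epithelial genes, the 1 that fell, from 17 reads to 0 (at least 5.44-fold, taking 3 counts as the floor of a group). The cyclin gene Ccnd1 was at 46.3 and 52.9 CPM on OP9 and 13.6 and 20.4 CPM on OP9-DLL1 (log2 fold change -1.57 ± 0.35, adjusted p = 0.103) and Id3, an inhibitor of helix-loop-helix factors, at 76.9 and 62.4 CPM on OP9 and 42.7 and 45.9 CPM on OP9-DLL1 (-0.65 ± 0.14, adjusted p = 0.103), lower in both OP9-DLL1 libraries without passing. Ccnd1 passed by voom on the recovered reads, and both passed in the fit of the 4 cMoP libraries alone (adjusted p = 0.00238 and adjusted p = 0.0277). Myc had a log2 fold change of -0.30 ± 0.18. The median over the 11 genes was -0.24, and of all genes tested 0.464% rose and 0.307% fell. The call of Snai1 ended whichever of the 4 cMoP libraries was left out (limma-trend adjusted p at most 0.243). Snai1 did not pass by voom on the recovered reads (adjusted p = 0.39). Snai1 did not pass in the fit of the 4 cMoP libraries alone (adjusted p = 0.311).

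Receptors and signal machinery were read next. None of 32 genes passed by limma-trend (unadjusted p under 0.05 in 2 higher and 2 lower, 0 by voom, by weighted voom, which gives each library a quality weight, and with the 4 cMoP libraries alone), and the median was -0.11. Notch1 was at 11.4 and 12.8 CPM on OP9 and 12.4 and 9.99 CPM on OP9-DLL1 (log2 fold change -0.11 ± 0.18, adjusted p = 0.926), and Notch2 was at 36.3 and 35.03 CPM on OP9 and 35.2 and 27.5 CPM on OP9-DLL1 (-0.20 ± 0.16, adjusted p = 0.79), so the receptors' libraries overlapped between the stromata. Rbpj was at 26.98 and 21.8 CPM on OP9 and 18.1 and 16.4 CPM on OP9-DLL1 (-0.49 ± 0.17, adjusted p = 0.339). Aph1b, a subunit of gamma-secretase, was at 1.98 and 2.57 CPM on OP9 and 4.04 and 5.91 CPM on OP9-DLL1 (1.11 ± 0.26, adjusted p = 0.116), and the ubiquitin ligase gene Neurl3 at 2.33 and 1.88 CPM on OP9 and 5.43 and 4.29 CPM on OP9-DLL1 (1.20 ± 0.27, adjusted p = 0.101). These were higher in both OP9-DLL1 libraries but did not pass.

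RBPJ binds DNA at sites built around GTGGGAA. These letters, or TTCCCAC where the site lies on the opposite strand, were sought on both strands of RefSeq promoter windows on GRCm38.p6, 250 bases before to 50 bases after each start. They stood in 4 of 45 windows matched to genes that rose (8.89%), 5 of 29 matched to genes that fell (17.2%) and 633 of 9100 matched to genes tested (6.96%); they stood in 6.38% of all 32851 windows. Stretches of up to 37 bases around the letters, given in capitals, are shown for members described below, to let the matches be compared between genes of either direction. The genes that rose are given first.
Cd244a, chr1:171558975-171559011, + strand: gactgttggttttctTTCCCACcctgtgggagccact
Cd244a, chr1:171559105-171559141, + strand: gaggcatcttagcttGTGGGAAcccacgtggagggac
AW011738, chr4:156203191-156203227, + strand: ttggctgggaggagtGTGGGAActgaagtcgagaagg
Tagap, chr17:7925789-7925825, + strand: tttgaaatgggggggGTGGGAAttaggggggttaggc
Genes that fell were as follows.
Vcan, chr13:89742679-89742715, - strand: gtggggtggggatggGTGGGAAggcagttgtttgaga
Dab2, chr15:6299550-6299586, + strand: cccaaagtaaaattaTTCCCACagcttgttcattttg
Ahnak, chr19:8989034-8989064, + strand: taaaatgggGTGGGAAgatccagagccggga
Cd244a held 2 matches, 203 and 73 bases before its start. Slc11a1, which rose, and Ccl9 and Adam8, which fell, held the letters within 5 bases of the start. A match describes the letters only, and windows without them say nothing about binding elsewhere.

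Of 48 transcription factors of monocytes and dendritic cells 2 rose and 1 fell, against 0.464% and 0.307% of all genes (median log2 fold change -0.13). Spic, an ETS factor that red pulp macrophages need (chromosome 10, 88674772 to 88685015), had 0 reads in both OP9 libraries and 11.4 and 10.0 CPM on OP9-DLL1, which is 1245 reads and at least 432-fold above the floor (adjusted p = 1.29e-06). Irf7, the interferon regulatory factor that amplifies type I interferon genes, was at 6.09 and 5.07 CPM on OP9 and 16.9 and 20.9 CPM on OP9-DLL1 (log2 fold change 1.76 ± 0.25, adjusted p = 0.0165). Maf, a macrophage factor, was at 2.43 and 1.73 CPM on OP9 and 0.404 and 0.607 CPM on OP9-DLL1 (-2.03 ± 0.28, adjusted p = 0.0137). Nr4a1, the nuclear receptor on which nonclassical monocytes depend, was at 0.756 and 2.26 CPM on OP9 and 4.92 and 5.33 CPM on OP9-DLL1 (1.96 ± 0.41, adjusted p = 0.0797), higher in both OP9-DLL1 libraries but short of the threshold. Bcl6 was under 1 CPM in every cMoP library, at 0.877 and 0.566 CPM on OP9 and 0.158 and 0.641 CPM on OP9-DLL1, and Irf2 was at 49.4 and 47.7 CPM on OP9 and 46.8 and 39.6 CPM on OP9-DLL1; neither passed (adjusted p = 0.632 and adjusted p = 0.817). The call of Irf7 ended whichever of the 4 cMoP libraries was left out (limma-trend adjusted p at most 0.164). The call of Maf ended without either OP9 library or OP9-DLL1 replicate 1 (at most 0.113). Irf7 and Maf did not pass by voom on the recovered reads (adjusted p = 0.0918 and 0.182). Maf did not pass in the fit of the 4 cMoP libraries alone (adjusted p = 0.0507).

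Of 47 inhibitory and activating immune receptors 5 rose and 1 fell, against 0.464% and 0.307% of all genes tested, and the median was 0.30. By count these were the most rises among the 40 lists, which differ in length. For comparison, 4 of 37 nonclassical monocyte genes and 3 of 31 adhesion genes rose. Cd22, an inhibitory lectin for sialic acid best known on B cells (chromosome 7, 30865402 to 30880342), was at 0.136 and 0.201 CPM on OP9 and 6.30 and 8.49 CPM on OP9-DLL1 (log2 fold change 5.40 ± 0.45, adjusted p = 0.000857). Cd22 is also a B cell marker. The summed level of Ighm and Cd79b, given above, overlapped between the groups. Cd79b alone was at 44.3 and 47.0 CPM on OP9 and 57.8 and 63.1 CPM on OP9-DLL1, higher without passing. Ighm alone was at 208.2 and 208.5 CPM on OP9 and 184 and 197 CPM on OP9-DLL1, lower without passing. The part of B cells in the Cd22 result was not tested. Cd244a, the SLAM family receptor 2B4 (chromosome 1, 171559193 to 171609746), was at 9.94 and 8.31 CPM on OP9 and 25.9 and 33.8 CPM on OP9-DLL1 (1.70 ± 0.21, adjusted p = 0.00821). Sh2d1b1, which is not in the list, encodes the adaptor EAT-2 of SLAM receptors. It was at 6.02 and 5.11 CPM on OP9 and 15.8 and 15.9 CPM on OP9-DLL1 (1.51 ± 0.26, adjusted p = 0.0371). Sh2d1b1 was picked from genes that passed, and the other receptors and adaptors of this family were not counted. Siglece, another inhibitory lectin, was at 64.1 and 52.3 CPM on OP9 and 125 and 114 CPM on OP9-DLL1 (1.04 ± 0.17, adjusted p = 0.0308). The activating receptors Pilrb1 (1.05 ± 0.19) and Trem3 (0.68 ± 0.11) rose as well. Lilr4b, an inhibitory receptor of the leukocyte immunoglobulin-like family, fell from 218 and 217 CPM on OP9 to 135 and 119 CPM on OP9-DLL1 (-0.78 ± 0.12, adjusted p = 0.0218). The calls of Sh2d1b1, Siglece, Pilrb1, Trem3 and Lilr4b ended whichever of the 4 cMoP libraries was left out (limma-trend adjusted p at most 0.29, 0.278, 0.324, 0.237 and 0.204). The call of Cd244a ended without OP9 replicate 2 or OP9-DLL1 replicate 2 (at most 0.101). Sh2d1b1 and Pilrb1 did not pass by voom on the recovered reads (adjusted p = 0.0743 and 0.0632).

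Several membrane protein genes outside that list rose as well. Gm14548, a predicted gene (chromosome 7, 3884242 to 3898120), was at 5.17 and 3.85 CPM on OP9 and 17.04 and 14.4 CPM on OP9-DLL1 (log2 fold change 1.81 ± 0.19, adjusted p = 0.00267). Klra2, of the Ly49 lectin family, was at 18.5 and 19.1 CPM on OP9 and 31.3 and 31.05 CPM on OP9-DLL1 (0.73 ± 0.12), and the predicted genes Gm5150 (1.42 ± 0.22) and Gm9733 (1.31 ± 0.22), both on chromosome 3, rose. Of the MS4A family, Ms4a6d was at 218 and 212 CPM on OP9 and 421 and 433 CPM on OP9-DLL1 (0.99 ± 0.14, adjusted p = 0.0163). Ms4a6b was at 44.9 and 33.00 CPM on OP9 and 97.2 and 90.1 CPM on OP9-DLL1 (1.28 ± 0.18). Ms4a4a was at 8.37 and 8.999 CPM on OP9 and 13.5 and 12.8 CPM on OP9-DLL1 (0.60 ± 0.11). These 3 members, all on chromosome 19, were picked from genes that passed, and the other family members tested were not counted. I830077J02Rik (chromosome 3, 105924358 to 105932664) was at 35.95 and 28.2 CPM on OP9 and 169 and 187 CPM on OP9-DLL1 (2.48 ± 0.18, adjusted p = 0.00054), a call that held under every setting run. Members of these families resemble each other, and their reads may be split between copies. The calls of Klra2, Gm9733, Ms4a6d and Ms4a4a ended whichever of the 4 cMoP libraries was left out (limma-trend adjusted p at most 0.228, 0.222, 0.172 and 0.299). The call of Gm5150 ended without either OP9 library or OP9-DLL1 replicate 2 (at most 0.166), and that of Ms4a6b without OP9 replicate 2 or either OP9-DLL1 library (at most 0.131). Klra2, Gm5150, Gm9733 and Ms4a4a did not pass by voom on the recovered reads (adjusted p = 0.0656, 0.122, 0.11 and 0.232). Ms4a4a did not pass in the fit of the 4 cMoP libraries alone (adjusted p = 0.115).

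Adhesion molecules changed in both directions: of 31 tested, 3 rose and 2 fell, against 0.464% and 0.307% of all genes (median -0.16). F11r, the junctional adhesion molecule JAM-A (chromosome 1, 171437535 to 171464603), was at 0.786 and 0.402 CPM on OP9 and 6.88 and 9.97 CPM on OP9-DLL1 (log2 fold change 3.86 ± 0.34, adjusted p = 0.000938). Jaml, a related molecule of leukocytes (chromosome 9, 45079183 to 45108534), was at 2.81 and 1.55 CPM on OP9 and 16.5 and 16.4 CPM on OP9-DLL1 (2.97 ± 0.24, adjusted p = 0.000857). Itgax, the integrin subunit CD11c (chromosome 7, 128129547 to 128150657), was at 0.574 and 1.31 CPM on OP9 and 6.81 and 8.37 CPM on OP9-DLL1 (3.11 ± 0.37, adjusted p = 0.00686). All 3 were low on OP9 and rose in both OP9-DLL1 libraries to 6 CPM or more. Itgax is also a dendritic cell marker, and was the 1 of 12 such markers that rose. Adam8, a metalloprotease that sheds surface proteins (chromosome 7, 139978932 to 139992562), was at 99.2 and 94.5 CPM on OP9 and 33.4 and 33.8 CPM on OP9-DLL1 (-1.53 ± 0.12, adjusted p = 0.000857). Pcdh7, a protocadherin, was at 5.62 and 4.47 CPM on OP9 and 0.176 and 0.422 CPM on OP9-DLL1 (-4.16 ± 0.67, adjusted p = 0.0259). Outside the list, the heparan sulfate proteoglycan Sdc4 fell from 8.69 and 11.6 CPM on OP9 to 3.65 and 3.48 CPM on OP9-DLL1 (-1.49 ± 0.18) and Flrt3, a leucine-rich repeat protein, from 39 reads to 2 (ratio 18.7, 95% counting interval 4.85 to 160.2). The call of Itgax ended without OP9-DLL1 replicate 2 (limma-trend adjusted p = 0.0686). The call of Pcdh7 ended whichever of the 4 cMoP libraries was left out (at most 0.238), and that of Sdc4 without OP9 replicate 2 or either OP9-DLL1 library (at most 0.0794). The call of Flrt3 ended without either OP9 library (at most 0.237). Sdc4 and Flrt3 did not pass by voom on the recovered reads (adjusted p = 0.0658 and 0.313). Flrt3 did not pass in the fit of the 4 cMoP libraries alone (adjusted p = 0.175).

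Among chemokine ligands more genes fell than rose. Of 17 tested, 5 fell and 1 rose, against 0.307% and 0.464% of all genes, and the median was -1.13. Ccl2, which draws CCR2-bearing monocytes (chromosome 11, 82035571 to 82037453), was at 141 and 107 CPM on OP9 and 20.8 and 17.1 CPM on OP9-DLL1 (log2 fold change -2.70 ± 0.26, adjusted p = 0.00139). Its neighbour Ccl7, 8258 bases away, was at 1.48 and 2.06 CPM on OP9 and 0.105 and 0.253 CPM on OP9-DLL1 (-3.35 ± 0.52, adjusted p = 0.023), and the third gene of that cluster, Ccl12, was at 1.83 and 1.22 CPM on OP9 and 0.334 and 0.169 CPM on OP9-DLL1 without passing (-2.61 ± 0.95, adjusted p = 0.4). Near-identical stretches of these genes may share reads. Ccl4 and Ccl3, inflammatory chemokines made by activated macrophages, lie 13228 bases apart on chromosome 11. Ccl4 was at 9.73 and 12.5 CPM on OP9 and 1.26 and 2.26 CPM on OP9-DLL1 (-2.70 ± 0.28, adjusted p = 0.0027) and Ccl3 at 14.4 and 17.9 CPM on OP9 and 7.08 and 7.47 CPM on OP9-DLL1 (-1.14 ± 0.19, adjusted p = 0.0319). Ccl9, a ligand of CCR1, was at 448 and 405 CPM on OP9 and 192 and 116 CPM on OP9-DLL1 (-1.51 ± 0.22, adjusted p = 0.0188), and its relative Ccl6 was at 124 and 129 CPM on OP9 and 61.1 and 43.8 CPM on OP9-DLL1 without passing (-1.29 ± 0.26, adjusted p = 0.0686). Ccl24, an eosinophil attractant that binds CCR3, went the other way, at 2.58 and 0.949 CPM on OP9 and 9.08 and 5.87 CPM on OP9-DLL1 (2.21 ± 0.41, adjusted p = 0.0484). The call of Ccl7 ended without either OP9 library or OP9-DLL1 replicate 1 (limma-trend adjusted p at most 0.213). The call of Ccl3 ended whichever of the 4 cMoP libraries was left out (at most 0.294), and that of Ccl9 without either OP9 library or OP9-DLL1 replicate 2 (at most 0.157). The call of Ccl24 ended without OP9 replicate 2 or either OP9-DLL1 library (at most 0.278). Ccl7, Ccl3 and Ccl24 did not pass by voom on the recovered reads (adjusted p = 0.592, 0.0641 and 0.075).

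Of 25 chemoattractant receptors 5 fell and 1 rose, against 0.307% and 0.464% of all genes tested, but the median over the list was 0.10. The receptor of Ccl2 and Ccl7, Ccr2 (chromosome 9, 124101950 to 124113557), was at 482 and 419 CPM on OP9 and 270.4 and 226 CPM on OP9-DLL1 (log2 fold change -0.86 ± 0.12, adjusted p = 0.0171). Ccr1 was at 155 and 164 CPM on OP9 and 90.02 and 83.3 CPM on OP9-DLL1 (-0.88 ± 0.11, adjusted p = 0.0094). Genes for ligands and genes for receptors of the CCR1 and CCR2 axes thus both fell. The complement receptors fell too. C3ar1 was at 2.61 and 3.10 CPM on OP9 and 0.597 and 0.523 CPM on OP9-DLL1 (-2.33 ± 0.21, adjusted p = 0.00111) and C5ar1 at 7.92 and 6.57 CPM on OP9 and 1.95 and 2.92 CPM on OP9-DLL1 (-1.59 ± 0.25, adjusted p = 0.024). Gpr35, a G protein-coupled receptor of myeloid and gut cells (chromosome 1, 92950865 to 92986391), rose from 6.27 and 6.498 CPM on OP9 to 21.3 and 18.6 CPM on OP9-DLL1 (1.64 ± 0.14, adjusted p = 0.000857). Higher without passing were the short-chain fatty acid receptor Ffar2, at 8.81 and 6.81 CPM on OP9 and 35.1 and 40.1 CPM on OP9-DLL1 (2.27 ± 0.55, adjusted p = 0.145), and Cxcr2, at 3.43 and 3.45 CPM on OP9 and 11.7 and 11.7 CPM on OP9-DLL1 (1.76 ± 0.33, adjusted p = 0.0526). With the 4 cMoP libraries alone Ffar2 and Cxcr2 passed (adjusted p = 0.000235 and adjusted p = 0.00226); they are named here after their values were seen. Other seven-helix receptor genes that changed were Gpr65, which senses protons and rose from 23.4 and 23.3 CPM on OP9 to 36.99 and 38.9 CPM on OP9-DLL1 (0.70 ± 0.13), and P2ry10b, which fell from 162 reads to 14 (-3.52 ± 0.43). The calls of Ccr2, Ccr1 and Gpr65 ended whichever of the 4 cMoP libraries was left out (limma-trend adjusted p at most 0.172, 0.127 and 0.297). The call of C5ar1 ended without either OP9 library or OP9-DLL1 replicate 1 (at most 0.189), and that of P2ry10b without OP9 replicate 2 (adjusted p = 0.0832). C5ar1, Gpr65, P2ry10b and C3ar1 did not pass by voom on the recovered reads (adjusted p = 0.203, 0.0521, 0.111 and 0.182).

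**Figure D3:**
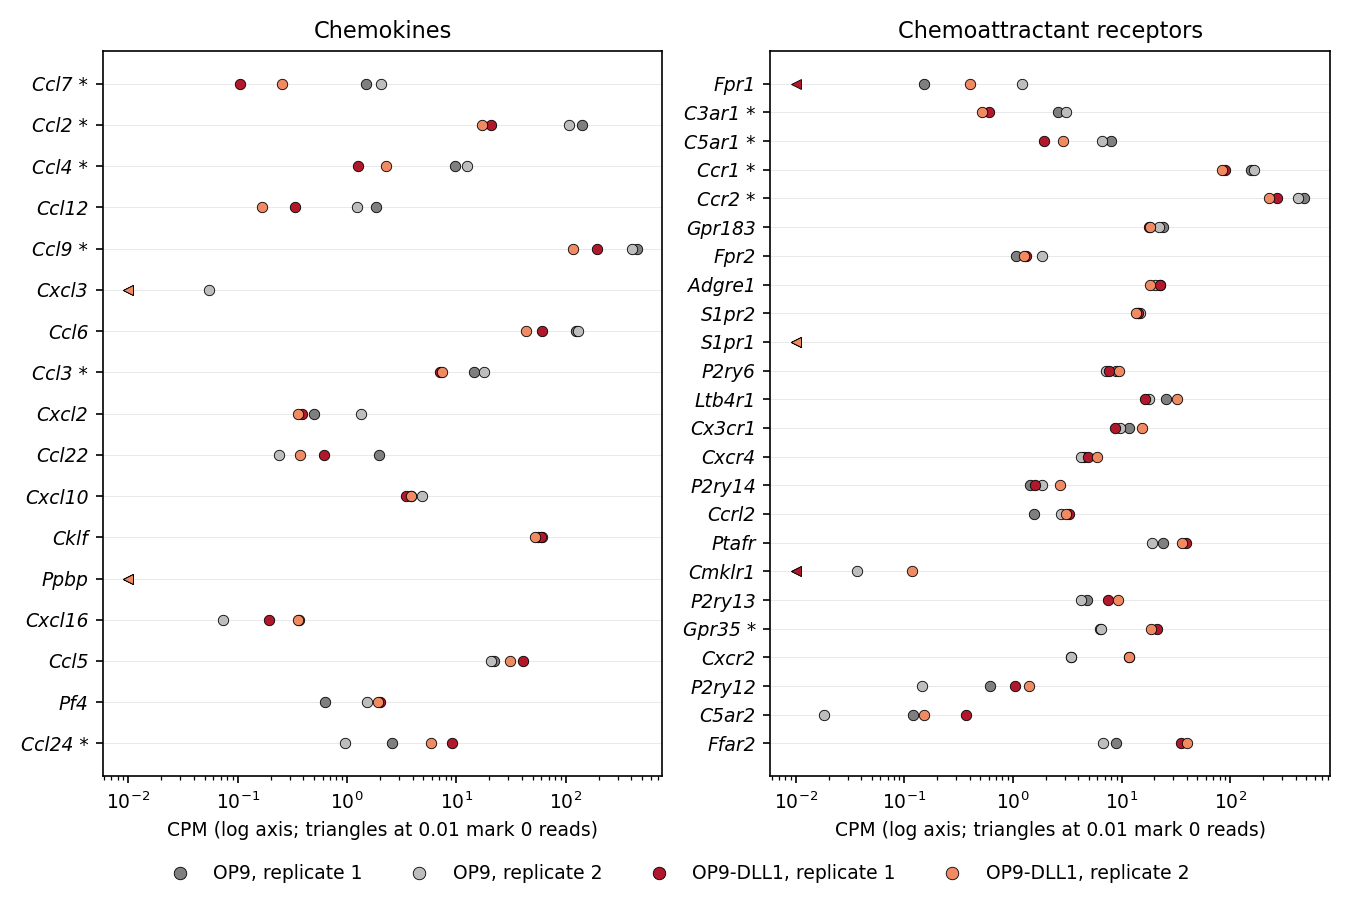
CPM in each of the 4 cMoP libraries (logarithmic axis) for the 17 chemokine genes (left) and 24 of the 25 chemoattractant receptor genes (right) tested, ordered by log2 fold change, with an asterisk at the 11 of these that passed and triangles at 0 reads. Grey points are OP9 and red or orange points OP9-DLL1; Ccl2 and Ccl9 fall by over 100 CPM while Ccl24 and Gpr35 rise.

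Of 29 genes that mark classical monocytes, 4 fell and 0 rose by limma-trend (unadjusted p under 0.05 in 5 higher and 10 lower, 0 higher by voom, and 2 higher in the fit of the 4 cMoP libraries and by weighted voom), with a median of -0.15. They are Ccr1 and Ccr2, given above, the matrix proteoglycan Vcan, at 48.8 and 38.6 CPM on OP9 and 18.8 and 14.9 CPM on OP9-DLL1 (log2 fold change -1.38 ± 0.20, adjusted p = 0.0184), and the C-type lectin Clec4d, at 84.1 and 102 CPM on OP9 and 46.1 and 45.8 CPM on OP9-DLL1 (-1.01 ± 0.16, adjusted p = 0.0257). Ly6c2 itself was at 2313 and 2072 CPM on OP9 and 2314 and 2065 CPM on OP9-DLL1, with overlapping groups. Of 37 nonclassical monocyte genes 4 rose and 1 fell, against 0.464% and 0.307% of all genes (median 0.26). Beside Hes1 and Itgax these were Nxpe4, at 0.605 and 0.548 CPM on OP9 and 2.86 and 3.56 CPM on OP9-DLL1 (2.46 ± 0.21, adjusted p = 0.000918), and the ribonuclease Ear2, at 0.302 and 0.183 CPM on OP9 and 1.23 and 1.35 CPM on OP9-DLL1 (2.41 ± 0.35, adjusted p = 0.0169), which is also the 1 of 7 mast cell, basophil and eosinophil markers that rose. The member that fell was Fabp4, given with the lipid genes. Close to the threshold were Adgre4, an adhesion G protein-coupled receptor, at 1.16 and 0.438 CPM on OP9 and 3.71 and 3.29 CPM on OP9-DLL1 (2.27 ± 0.42, adjusted p = 0.0501), and Treml4, a receptor of the TREM family, at 5.52 and 1.75 CPM on OP9 and 16.5 and 15.9 CPM on OP9-DLL1 (2.38 ± 0.47, adjusted p = 0.0671), both chosen after their values were seen. The calls of Vcan and Clec4d ended whichever of the 4 cMoP libraries was left out (limma-trend adjusted p at most 0.159 and 0.239). The call of Ear2 ended without OP9 replicate 2 or either OP9-DLL1 library (at most 0.12). Vcan, Ear2 and Nxpe4 did not pass by voom on the recovered reads (adjusted p = 0.0507, 0.266 and 0.0656). Ear2 did not pass in the fit of the 4 cMoP libraries alone (adjusted p = 0.06).

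The lipid list held large changes both ways, 3 rises and 3 falls among 39 genes, against 0.464% and 0.307% of all genes (median -0.07). Spp1, osteopontin, a secreted matrix protein that lipid-laden macrophages make (chromosome 5, 104435118 to 104441050), was at 1278 and 1634 CPM on OP9 and 213 and 233 CPM on OP9-DLL1 (log2 fold change -2.70 ± 0.18, adjusted p = 0.000476). Lpl, lipoprotein lipase (chromosome 8, 68880491 to 68907448), was at 759 and 1208 CPM on OP9 and 101 and 195 CPM on OP9-DLL1 (-2.77 ± 0.31, adjusted p = 0.00456). Fabp4, a fatty acid carrier, went from 42 reads on OP9 to 0 on OP9-DLL1 (at least 13.5-fold, adjusted p = 0.0335). Pla2g7, the secreted phospholipase that inactivates platelet-activating factor (chromosome 17, 43568098 to 43612201), was at 3.46 and 4.25 CPM on OP9 and 76.3 and 57.5 CPM on OP9-DLL1 (4.11 ± 0.25, adjusted p = 0.000245). Stra6l, a receptor for retinol-binding protein, was at 0.272 and 0.438 CPM on OP9 and 7.22 and 4.03 CPM on OP9-DLL1 (3.93 ± 0.54, adjusted p = 0.0134), and the transporter gene Abcg3 at 0.892 and 0.456 CPM on OP9 and 7.11 and 8.17 CPM on OP9-DLL1 (3.56 ± 0.57, adjusted p = 0.0257). Outside the list, Pid1, an adaptor of lipoprotein receptor signalling (chromosome 1, 84036296 to 84364180), was at 10.8 and 14.7 CPM on OP9 and 1.83 and 2.48 CPM on OP9-DLL1 (-2.56 ± 0.24, adjusted p = 0.00115). Dab2, an adaptor for endocytosis of such receptors, was at 23.5 and 20.4 CPM on OP9 and 9.10 and 6.24 CPM on OP9-DLL1 (-1.54 ± 0.23, adjusted p = 0.0217). Plbd1, a phospholipase B-like protein, rose from 2.39 and 1.52 CPM on OP9 to 5.94 and 6.61 CPM on OP9-DLL1 (1.72 ± 0.23). The calls of Fabp4, Stra6l and Abcg3 ended whichever of the 4 cMoP libraries was left out (limma-trend adjusted p at most 0.27, 0.135 and 0.222). The call of Lpl ended without OP9 replicate 2 (adjusted p = 0.0537), and that of Dab2 without either OP9 library or OP9-DLL1 replicate 2 (at most 0.169). The call of Plbd1 ended without OP9 replicate 2 or either OP9-DLL1 library (at most 0.0998). Fabp4, Stra6l and Plbd1 did not pass by voom on the recovered reads (adjusted p = 0.162, 0.0656 and 0.104). Fabp4 did not pass in the fit of the 4 cMoP libraries alone (adjusted p = 0.108).

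In the macrophage list Spic and Pla2g7 rose and Lpl and Dab2 fell among 24 genes (median 0.25). Of 36 protease and matrix genes 4 fell and 0 rose by limma-trend (unadjusted p under 0.05 in 2 higher and 8 lower, 0 higher by voom and weighted voom, 1 higher with the 4 cMoP libraries alone). They were Adam8, Spp1 and Vcan, given above, and Timp1, the metalloprotease inhibitor (chromosome X, 20870166 to 20874735), at 43.9 and 45.3 CPM on OP9 and 18.4 and 16.2 CPM on OP9-DLL1 (log2 fold change -1.37 ± 0.16, adjusted p = 0.00501). The call of Timp1 ended without OP9 replicate 2 or OP9-DLL1 replicate 2 (limma-trend adjusted p at most 0.0678).

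Of 36 cytokine and growth factor receptors 2 rose and 0 fell by limma-trend (unadjusted p under 0.05 in 10 higher and 2 lower, 0 lower by voom, 1 lower with the 4 cMoP libraries alone and by weighted voom) and a median of 0.24. Il1r2, the decoy receptor that binds interleukin 1 without signalling (chromosome 1, 40074079 to 40125231), was at 4.90 and 2.94 CPM on OP9 and 34.1 and 23.9 CPM on OP9-DLL1 (log2 fold change 2.91 ± 0.26, adjusted p = 0.00111). Il10ra, the ligand-binding chain of the interleukin 10 receptor, was at 9.05 and 6.28 CPM on OP9 and 15.03 and 17.5 CPM on OP9-DLL1 (1.10 ± 0.19, adjusted p = 0.0331). The cytokine genes Il18, Il16 and Pgf rose too. Il18 was at 2.86 and 3.21 CPM on OP9 and 6.20 and 7.21 CPM on OP9-DLL1 (1.14 ± 0.19, adjusted p = 0.0308), the 1 of 35 NF-kB and inflammatory genes that passed. Il16, a chemoattractant of CD4-bearing cells, was at 34.4 and 32.8 CPM on OP9 and 60.6 and 55.5 CPM on OP9-DLL1 (0.79 ± 0.13), and Pgf, placental growth factor, at 0.665 and 0.493 CPM on OP9 and 3.02 and 2.16 CPM on OP9-DLL1 (2.14 ± 0.31). The calls of Il18, Il16 and Pgf ended whichever of the 4 cMoP libraries was left out (limma-trend adjusted p at most 0.207, 0.263 and 0.149). The call of Il10ra ended without OP9 replicate 2 or either OP9-DLL1 library (at most 0.234). Il10ra, Il18 and Pgf did not pass by voom on the recovered reads (adjusted p = 0.0635, 0.158 and 0.139).

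Interferon response genes had the highest median of the lists with over 10 members. Of 51 tested, 2 rose and 0 fell by limma-trend (unadjusted p under 0.05 in 18 higher and 4 lower; 1 higher and 0 lower by voom), and the median was 0.38. Irf7 is given above. Gbp8, a guanylate-binding protein, went from 0 to 100 reads (0.896 and 0.827 CPM, at least 34.7-fold, adjusted p = 0.00686). Gbp9, which overlaps Gbp8 on chromosome 5 and on the same strand, was at 0.831 and 0.438 CPM on OP9 and 3.35 and 3.09 CPM on OP9-DLL1 (log2 fold change 2.40 ± 0.41, adjusted p = 0.0331), and reads in the shared stretch could belong to either. Trim30b, of a family induced by interferon, was at 6.62 and 6.55 CPM on OP9 and 14.1 and 14.3 CPM on OP9-DLL1 (1.11 ± 0.17). Just short of the threshold were Gbp2, at 3.52 and 2.21 CPM on OP9 and 9.92 and 7.44 CPM on OP9-DLL1 (1.62 ± 0.31, adjusted p = 0.0571), and Isg15, the ubiquitin-like modifier, at 3.82 and 3.07 CPM on OP9 and 6.60 and 7.26 CPM on OP9-DLL1 (1.01 ± 0.19, adjusted p = 0.0574), chosen after their values were seen. Among 17 genes of class II antigen presentation, Ciita, the transactivator of the class II promoters (chromosome 16, 10480059 to 10528418), rose from 0 to 84 reads (0.685 and 0.759 CPM, at least 29.1-fold, adjusted p = 0.000857), and 0 fell by limma-trend (unadjusted p under 0.05 in 4 higher and 0 lower, 0 and 0 by voom). H2-DMb2 was at 8.89 and 5.93 CPM on OP9 and 13.8 and 16.6 CPM on OP9-DLL1 (1.05 ± 0.28, adjusted p = 0.183). The calls of Gbp9 and Trim30b ended whichever of the 4 cMoP libraries was left out (limma-trend adjusted p at most 0.237 and 0.204). The call of Gbp8 ended without either OP9-DLL1 library (at most 0.0756). Gbp9 and Ciita did not pass by voom on the recovered reads (adjusted p = 0.121 and 0.308).

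Of 37 immediate early and MAP kinase feedback genes 1 rose and 1 fell (median -0.35). Dusp6, the phosphatase of ERK, was at 18.4 and 19.8 CPM on OP9 and 45.8 and 63.1 CPM on OP9-DLL1 (log2 fold change 1.49 ± 0.26, adjusted p = 0.0369) and Dusp3, another phosphatase of MAP kinases, at 49.99 and 51.1 CPM on OP9 and 29.7 and 30.8 CPM on OP9-DLL1 (-0.74 ± 0.12, adjusted p = 0.0311). Grk3 and the other genes that follow were gathered from those that passed. Grk3, a kinase that desensitises G protein-coupled receptors, was at 6.89 and 5.69 CPM on OP9 and 18.6 and 14.9 CPM on OP9-DLL1 (1.41 ± 0.21, adjusted p = 0.0177). Of the phosphodiesterases that degrade cyclic AMP, Pde4b rose from 9.16 and 9.09 CPM on OP9 to 14.7 and 16.6 CPM on OP9-DLL1 (0.78 ± 0.14) and Pde8a fell from 3.84 and 2.88 CPM on OP9 to 0.580 and 0.877 CPM on OP9-DLL1 (-2.21 ± 0.29). Sla, an adaptor that dampens receptor signalling, was at 67.9 and 61.6 CPM on OP9 and 129 and 141 CPM on OP9-DLL1 (1.06 ± 0.12, adjusted p = 0.00395). Ubash3b, a phosphatase with a like role, fell from 23.2 and 27.7 CPM on OP9 to 13.2 and 13.7 CPM on OP9-DLL1 (-0.92 ± 0.14). Trib1, a pseudokinase that promotes degradation of C/EBP alpha, fell (-1.60 ± 0.26), as did the calcium-dependent kinase gene Camk1d (-1.96 ± 0.26). The calls of Dusp6, Dusp3, Grk3, Pde4b and Ubash3b ended whichever of the 4 cMoP libraries was left out (limma-trend adjusted p at most 0.26, 0.258, 0.185, 0.258 and 0.237). The call of Pde8a ended without either OP9 library or OP9-DLL1 replicate 1 (at most 0.0993), and that of Sla without OP9 replicate 2 or OP9-DLL1 replicate 2 (at most 0.0678). The call of Trib1 ended without either OP9 library or OP9-DLL1 replicate 2 (at most 0.237), and that of Camk1d without OP9 replicate 2 or OP9-DLL1 replicate 1 (at most 0.127). Dusp3, Pde4b, Pde8a, Trib1 and Camk1d did not pass by voom on the recovered reads (adjusted p = 0.0507, 0.0997, 0.0764, 0.0764 and 0.138).

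Of the cytoskeletal and calcium-binding genes that follow, S100a6 is in a list, and the rest were gathered from genes that passed. Marcks, which cross-links actin and is released by protein kinase C (chromosome 10, 37133375 to 37138920), was at 6.68 and 6.52 CPM on OP9 and 20.9 and 21.6 CPM on OP9-DLL1 (log2 fold change 1.69 ± 0.14, adjusted p = 0.000857). Abi3, of the WAVE complex that drives actin branching, was at 16.7 and 13.9 CPM on OP9 and 29.4 and 34.8 CPM on OP9-DLL1 (1.07 ± 0.17, adjusted p = 0.0259), and the small GTPase regulators Abr (1.07 ± 0.14) and Tagap (1.21 ± 0.22) rose with it. Fam49a (1.26 ± 0.21) and the actin-binding calponin Cnn2 (0.70 ± 0.12) also rose. Plec, the linker plectin (chromosome 15, 76170974 to 76232574), was at 309 and 257 CPM on OP9 and 143 and 119 CPM on OP9-DLL1 (-1.11 ± 0.14, adjusted p = 0.00924), Lmna, the nuclear lamins A and C, at 49.9 and 50.2 CPM on OP9 and 15.2 and 22.3 CPM on OP9-DLL1 (-1.44 ± 0.24, adjusted p = 0.0289), and the scaffold Ahnak at 42.8 and 35.9 CPM on OP9 and 19.8 and 17.3 CPM on OP9-DLL1 (-1.08 ± 0.14, adjusted p = 0.00821). Pleckstrin, encoded by Plek, fell (-1.01 ± 0.15), as did Epb41l1, a membrane skeleton protein, from 139 reads to 13 (-3.27 ± 0.55). S100a6, a calcium-binding protein that stroma and myeloid cells share, was at 272 and 261 CPM on OP9 and 155 and 182 CPM on OP9-DLL1 (-0.67 ± 0.12, adjusted p = 0.0369). It was the 1 of 14 stroma markers that passed. The sum of all 14, given above, was lower in both OP9-DLL1 libraries, while that of the 10 left without Thbs1, S100a6, Acta2 and Vcam1 overlapped. The calls of Abi3, Abr, Tagap, Fam49a, Cnn2, Lmna, Plek and S100a6 ended whichever of the 4 cMoP libraries was left out (limma-trend adjusted p at most 0.238, 0.12, 0.32, 0.203, 0.287, 0.222, 0.219 and 0.279). The calls of Plec and Ahnak ended without OP9 replicate 1 or OP9-DLL1 replicate 2 (at most 0.0944 and 0.0881), and that of Epb41l1 without either OP9 library or OP9-DLL1 replicate 2 (at most 0.239). Epb41l1 did not pass by voom on the recovered reads (adjusted p = 0.158). Epb41l1 did not pass in the fit of the 4 cMoP libraries alone (adjusted p = 0.0502).

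Slc39a14, a zinc and iron importer (chromosome 14, 70303469 to 70351425), was at 20.5 and 20.2 CPM on OP9 and 4.76 and 5.59 CPM on OP9-DLL1 (log2 fold change -1.98 ± 0.18, adjusted p = 0.0012). Slc11a1, the metal exporter of phagosomes, was at 40.9 and 42.8 CPM on OP9 and 67.2 and 88.8 CPM on OP9-DLL1 (0.89 ± 0.16, adjusted p = 0.0401), and these were the 1 fall and the 1 rise among 31 iron and heme genes. Slc7a11, which brings in cystine for glutathione, was at 11.03 and 11.7 CPM on OP9 and 31.1 and 25.9 CPM on OP9-DLL1 (1.32 ± 0.20, adjusted p = 0.0222), the 1 gene that passed of 30 in the amino acid response list and of 33 in the reactive oxygen list. Ocstamp, needed for fusion of osteoclasts, was at 1.28 and 0.657 CPM on OP9 and 5.04 and 6.13 CPM on OP9-DLL1 (2.58 ± 0.36, adjusted p = 0.0134), the 1 of 14 osteoclast genes that passed. The calls of Slc11a1 and Slc7a11 ended whichever of the 4 cMoP libraries was left out (limma-trend adjusted p at most 0.26 and 0.162). The call of Ocstamp ended without OP9 replicate 2 or either OP9-DLL1 library (at most 0.121). Slc11a1 and Slc7a11 did not pass by voom on the recovered reads (adjusted p = 0.0656 and 0.067).

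**Figure D4:**
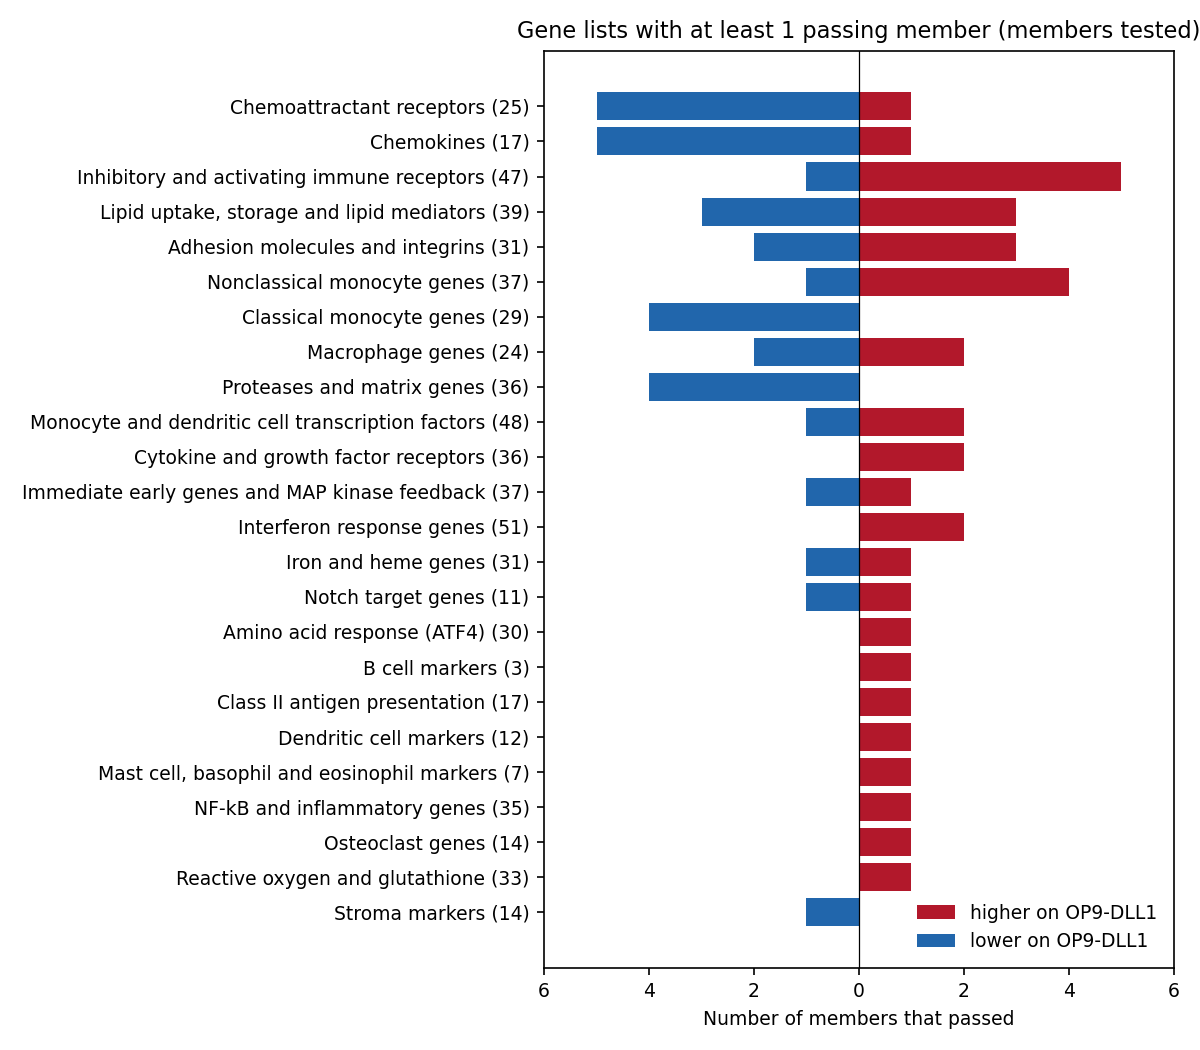
Number of members that rose (red, to the right) or fell (blue, to the left) on OP9-DLL1 in cMoPs for each list with at least 1 passing member, with the number tested in brackets. Chemokines and chemoattractant receptors have 5 members each on the left and 1 each on the right, and the immune receptors have 5 on the right and 1 on the left.

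The remaining genes that passed belong to no list. AW011738 (chromosome 4, 156203304 to 156205151) went from 0 to 246 reads (1.63 and 2.58 CPM, at least 85.3-fold, adjusted p = 0.000938) and the predicted gene Gm19951 (chromosome 12, 99643093 to 99647221) from 0 to 81 reads (0.421 and 0.962 CPM, at least 28.1-fold, adjusted p = 0.000857). Ankrd66, an ankyrin repeat gene 24458 bases from Pla2g7, went from 3 to 112 reads (ratio 38.9, 95% counting interval 12.96 to 191). Plet1 lies 49344 bases from Il18 and went from 2 to 77 reads (ratio 40.1, interval 10.7 to 337). The pseudogene Gad1-ps went from 4 reads to 128 (log2 fold change 5.48 ± 0.88). Tspan13, a tetraspanin, was at 4.28 and 3.80 CPM on OP9 and 15.5 and 16.5 CPM on OP9-DLL1 (1.99 ± 0.23, adjusted p = 0.00554). Leng9 (1.14 ± 0.18), Lbh (1.13 ± 0.19), C130050O18Rik (1.16 ± 0.16), the glutamate cyclase Dglucy (1.03 ± 0.17) and Ccdc28b (0.80 ± 0.15) rose by smaller folds. Fam129b fell from 16.4 and 14.3 CPM on OP9 to 7.10 and 6.07 CPM on OP9-DLL1 (-1.22 ± 0.16, adjusted p = 0.00943) and the pseudogene Slfn10-ps from 4.96 and 5.29 CPM on OP9 to 2.21 and 1.82 CPM on OP9-DLL1 (-1.35 ± 0.21). Gm42793, a gene model inside Spp1 on the same strand, fell from 95 reads to 0 (at least 30.4-fold), and its reads cannot be told from those of Spp1. The calls of Plet1, Leng9, Lbh, Dglucy, Ccdc28b, Slfn10-ps and Gm42793 ended whichever of the 4 cMoP libraries was left out (limma-trend adjusted p at most 0.244, 0.181, 0.259, 0.263, 0.305, 0.209 and 0.201). The calls of Gad1-ps and C130050O18Rik ended without OP9 replicate 2 or either OP9-DLL1 library (at most 0.17 and 0.12), and that of Ankrd66 without either OP9-DLL1 library (at most 0.128). The call of Tspan13 ended without OP9 replicate 2 or OP9-DLL1 replicate 2 (at most 0.0678), and that of Fam129b without either OP9 library or OP9-DLL1 replicate 2 (at most 0.0979). Ankrd66, Plet1, Gad1-ps, Leng9, Lbh, Ccdc28b, Slfn10-ps and Gm42793 did not pass by voom on the recovered reads (adjusted p = 0.0764, 0.0764, 0.0887, 0.072, 0.0583, 0.0657, 0.0681 and 0.0507).

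Genes that passed were in places neighbours. Within 100000 bases of each other lay 13 pairs made of 20 of the 103 genes, and in all 13 the members changed in the same direction. Beside the chemokine and overlapping genes already described, they include F11r and Cd244a, 94589 bases apart on chromosome 1, Ms4a6b and Ms4a6d on chromosome 19, and Abcg3 next to Gbp8, 31431 bases apart on chromosome 5. The share of pairs with 1 direction was not compared with other genes.

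Lists for growth and housekeeping had 0 genes past the threshold in either direction by limma-trend, but some passed in other fits. The fit of the 4 cMoP libraries alone called 5 ribosome biogenesis genes lower, 4 progenitor and granule genes higher, 2 cholesterol genes higher, 2 cyclins or inhibitors lower and 1 replication gene higher, and weighted voom called 4, 4, 2, 1 and 0. Of 40 mitosis genes 1 was higher and 0 were lower with an unadjusted p below 0.05, and of 44 DNA replication genes 2 and 0 (0 by voom in both), with medians of 0.09 and 0.17. Top2a, the topoisomerase of dividing cells, was at 431 and 423 CPM on OP9 and 438 and 381 CPM on OP9-DLL1 and Mcm5, of the replicative helicase, at 419.6 and 375 CPM on OP9 and 555 and 485 CPM on OP9-DLL1. Unadjusted p-values below 0.05 were found for 6 higher and 2 lower of 22 D cyclins and cell cycle inhibitors (voom called 1 lower), and Cdk4 and Ccnd2, the members with the highest CPM, had log2 fold changes of 0.14 ± 0.10 and -0.35 ± 0.42. For 46 ribosome biogenesis genes the median was -0.18, with 0 higher and 9 lower by unadjusted p below 0.05 (0 by voom). Nucleolin, Ncl, was at 2489 and 2579 CPM on OP9 and 1809 and 1907 CPM on OP9-DLL1 (-0.45 ± 0.24, adjusted p = 0.637), lower in both OP9-DLL1 libraries, and passed with the 4 cMoP libraries alone (adjusted p = 0.00546). Of 28 progenitor and primary granule genes 4 higher and 0 lower had an unadjusted p below 0.05 (0 by voom), with Elane at 0.36 ± 0.18 and Mpo at 0.31 ± 0.53. For cholesterol synthesis (29 genes, median 0.24) the counts were 8 and 0 (0 by voom), with Acat2 at 141 and 148 CPM on OP9 and 193 and 210.3 CPM on OP9-DLL1 (0.48 ± 0.13, adjusted p = 0.209, and adjusted p = 0.0209 with the 4 cMoP libraries alone).

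The other lists without a call were glycolysis and hypoxia (35 genes, median -0.07, unadjusted p under 0.05 in 1 higher and 2 lower), the unfolded protein response (25 genes, median 0.09, 4 and 2), survival and death genes (28 genes, median 0.04, 6 and 3) and TGF-beta and BMP signalling (27 genes, median -0.02, 4 and 4). Voom called 0 in each of the 4, weighted voom 1 glycolysis gene higher and 1 TGF-beta gene lower, and the fit of the 4 cMoP libraries 1 survival gene higher and 1 TGF-beta gene lower. For the 2 members of each list with the highest CPM, log2 fold changes were -0.06 ± 0.12 for Gapdh and -0.02 ± 0.11 for Eno1, 0.17 ± 0.15 for the chaperone Hspa5 and 0.13 ± 0.11 for Pdia6, 0.04 ± 0.10 for Trp53 and 0.12 ± 0.16 for Bax, and 0.16 ± 0.12 for Tgfbi and -0.24 ± 0.15 for Id1. Mitochondrially encoded genes (13, median -0.21, 0 and 0) included mt-Co1 at -0.29 ± 0.15 and mt-Cytb at -0.09 ± 0.17, and voom called 0 and the fit of the 4 cMoP libraries 1 lower. Of the markers of other cells, 0 passed by limma-trend among 18 neutrophil (unadjusted p under 0.05 in 3 higher and 0 lower, 1 higher by voom, by weighted voom and with the 4 cMoP libraries alone), 3 erythroid (0 and 0), 3 megakaryocyte (0 and 0) and 4 T and NK cell genes (0 and 1), the last 3 with 0 by voom. Ppbp, a platelet chemokine, had 0 reads in all 4 cMoP libraries. Log2 fold changes of the members with the highest CPM were -0.11 ± 0.25 for Tfrc, 0.70 ± 0.39 for Car2, 0.998 ± 0.459 for Pf4, 0.32 ± 0.52 for Gng11, 0.50 ± 0.30 for Nkg7 and 1.39 ± 1.73 for Gzmb.

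Classical monocytes on the same stromata changed in more genes: 6.39% of those tested passed, and 450 rose (3.36%) and 405 fell (3.03%) in the same fit. Most of the cMoP genes pointed the same way in them, but the share of all genes tested with 1 sign in both is not given here. Of the 62 genes that rose in cMoPs 59 had a positive log2 fold change in monocytes and 45 passed there, which is 72.6% of the cMoP rises and 10.0% of the monocyte rises. Of the 41 that fell, 40 had a negative one and 27 passed, 65.9% of the cMoP falls and 6.67% of the monocyte falls. None of the 103 passed in the opposite direction. The comparisons share no library, but share the estimate of spread. Genes that passed in cMoPs with little in monocytes included Ankrd66 (-0.06 ± 0.77 in monocytes), Sdc4 (-0.06 ± 0.18), Pde8a (-0.17 ± 0.29), Ms4a4a (0.16 ± 0.11) and Slc11a1 (0.17 ± 0.16), named after their values were seen, and for these the difference between the cell types did not pass.

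**Figure D5:**
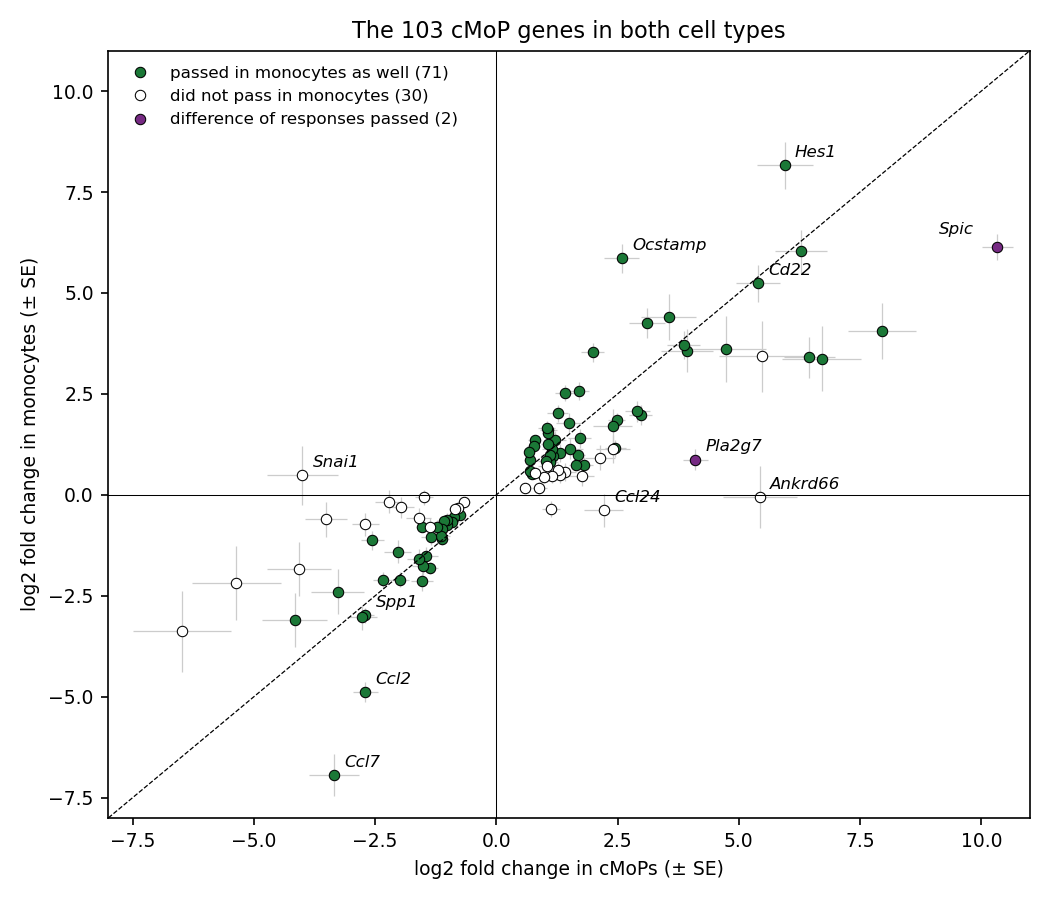
Log2 fold change on OP9-DLL1 in monocytes (vertical axis) against that in cMoPs (horizontal axis) for the 103 cMoP genes, with standard errors as bars and a dashed line of equal response. Green points passed in monocytes as well, white points did not, and purple points mark Spic and Pla2g7, for which the difference of responses passed; 99 of the 103 genes have the same sign in both.

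The difference of responses, cMoPs minus monocytes, was tested directly and passed for 7 genes (0.0523% of those tested), 2 of them among the 103. Pla2g7 rose more in cMoPs, by 3.23 ± 0.35 on the log2 scale (limma-trend adjusted p = 0.0216). In monocytes it was at 1453 and 871 CPM on OP9 and 2364 and 1802 CPM on OP9-DLL1 (0.88 ± 0.25, adjusted p = 0.073), above both cMoP groups on either stroma. Spic differed by 4.19 ± 0.46 (limma-trend adjusted p = 0.0216), but its cMoP value rests on 0 reads on OP9. The size and the sign of that difference therefore depend on the 0.5 reads added to each count. With 1 CPM added instead, the monocyte rise would be the larger. In monocytes Spic went from 1.41 and 2.03 CPM to 124 and 116 CPM. The other 5 genes did not pass in cMoPs. The nucleolar gene Gpatch4 (1.54 ± 0.19) and Hmga1, a chromatin protein of dividing cells (1.34 ± 0.15), fell in monocytes and had cMoP log2 fold changes of -0.26 ± 0.13 and -0.02 ± 0.11. Pecam1, an endothelial and leukocyte adhesion molecule (-2.33 ± 0.21), the cytokine receptor Il21r (-1.92 ± 0.23) and Plac8 (-1.78 ± 0.14) rose in monocytes and had cMoP values of 0.08 ± 0.15, 0.26 ± 0.17 and 0.39 ± 0.10. For Hes1 the monocyte response was 8.16 ± 0.58 and the difference did not pass (-2.22 ± 0.82, adjusted p = 0.426). The 7 calls all ended without any 1 of the cMoP libraries or either OP9-DLL1 monocyte library, under each of which 0 genes passed; without OP9 monocyte replicate 1 the count was 29 and without replicate 2 it was 1124.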

How the data were processed

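RNA of sorted cells was made into libraries from 10 ng with a SMARTer Ultra Low kit, which does not mark strand, and sequenced as paired reads, per the labels' protocols. Tools named in the submitters' processing notes are STAR 2.7.9a and Salmon 1.5.2, beside bcl2fastq, featureCounts 2.0.3 (Subread), limma and edgeR, with build mm10. Which step each served, the annotation and the gene filter were left unstated (not given in the sources used here). Values as deposited are log2 CPM in which the authors' effective library size divides each count after 0.5 reads are added, per the values themselves. Dividing out that scale gave whole reads for 100% of values (tolerance 0.001). CPM in the text is recovered reads per 1000000 of the effective size, without the 0.5 reads. Of 13430 entries 42 repeats were dropped, and 13380 of 13388 identifiers were found in GENCODE M21 (GRCm38, the build mm10 names), from which positions come.

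Tests used limma 3.58.1 in R 4.3.3 (limma-trend on the deposited log2 CPM, two-sided, Benjamini-Hochberg over all genes tested), with 1 mean for each of the 4 groups over all 8 libraries, which leaves 4 residual degrees of freedom. The 13374 genes with at least 1 CPM in 2 libraries were tested and 14 were left out. Errors beside log2 values are standard errors. No count test was run, because the deposited unit is a log scale; voom on the recovered reads was an alternative. A 2-against-2 exact permutation test cannot go below 0.3333, so none is given. Folds against 0 reads use a floor of 3 counts over the group, and floors and 95% counting intervals cover counting error only. At these depths 1 read in a cMoP library is worth at most 0.0183 CPM.

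Named genes were those that passed with non-overlapping groups and at least 5 CPM in the higher group, without predicted gene models: the 20 highest and 20 lowest by fold, the 10 lowest adjusted p and the 6 of highest CPM in each direction. The rule added up to 6 passing members of each of 40 lists (922 members tested), or up to 2 of highest CPM where none passed, some fixed genes, and up to 5 in each direction for the difference of responses. It took in 67 of the 103 genes. The other 36 (Gad1-ps, Plek, Abr, Abi3, Fam49a, Pgf, Gpr65, Gm19951, Dglucy, Trib1, Tagap, Ankrd66, Lbh, Ahnak, Ms4a4a, Camk1d, Flrt3, Epb41l1, Gm9733, Gm5150, I830077J02Rik, Pde4b, Ccdc28b, AW011738, Gm42793, Gbp9, C130050O18Rik, Klra2, Gm14548, Leng9, Pde8a, Il16, Trim30b, Ubash3b, Plet1 and P2ry10b) were named after their values were seen, as were genes given as close to the threshold. Of the genes that passed, 1 is not reported here by name, though counts include it. The comparison and the lists were chosen with earlier results of these data known. Alternatives varied the filter, variance model, libraries in the fit, scaling, pseudocount, repeated entries and replicate block, and left out each library; leaving out monocyte libraries in the cMoP comparison, and all alternatives for the monocyte comparison, were added after seeing the data.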

Additional observations from a re-analysis of the deposited data

Results flagged for a closer look

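The response to OP9-DLL1 differed between cMoPs and monocytes for 7 genes by a test of the difference itself in the limma-trend fit (cMoPs minus monocytes, log2 scale, Benjamini-Hochberg adjusted p under 0.05). Positive values were those of Spic (4.19), Pla2g7 (3.23), Gpatch4 (1.54) and Hmga1 (1.34), and negative ones those of Pecam1 (-2.33), Il21r (-1.92) and Plac8 (-1.78). Spic had 0 reads on OP9 in cMoPs, so the size and sign of its value depend on the 0.5 reads added to each count. In cMoPs the endothelial and leukocyte adhesion gene Pecam1 had a log2 fold change of 0.08 ± 0.15, against 2.41 ± 0.15 in monocytes, and Plac8 had 0.39 ± 0.10 against 2.18 ± 0.10. Groups of 2 libraries are too small for a check of single outlying libraries.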

How the results depend on the processing

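The count of genes called in cMoPs was 103 and moved with the variance model and the libraries in the fit. It was 37 without the mean-variance trend, 64 by voom, 268 by voom with sample weights and 315 with the cMoP libraries alone. Leaving out a library gave 31 to 308, with the top of that range without an OP9 monocyte library (308 and 305). The share of calls that were higher, 60.2%, ran from 44.7% to 72.9% across omitted libraries, from 44.7% and 49.0% without an OP9-DLL1 cMoP library to 71.0% and 72.9% without an OP9 one. List members called, 52, numbered 18 without the trend, 98 with sample weights, 116 with the cMoP libraries alone and 21 to 120 across omissions. The 7 differences of response became 1 without the trend, 24 on log2(CPM + 1) and 0 to 1124 across omissions. The 855 monocyte calls became 248 without the trend, 536 with sample weights and 164 to 2488 across omissions. The cause was not tested. Between 99 and 108 cMoP genes were called with no filter, a 5 CPM filter, centred libraries, plain totals, log2(CPM + 1) or the last entry of each identifier. Of the 103 genes, 0 changed direction under any setting. Leaving out a cMoP library could not reverse a direction, because the groups did not overlap in these genes. Leaving out a monocyte library left the cMoP means unchanged. Among genes given as values that did not pass, Ly6c2, Eno1, Pecam1, Hmga1, Notch1, Top2a and Trp53, all with small log2 fold changes, changed sign in 1 or 2 settings.

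Deviations of same-numbered libraries from their group means correlated by 0.0227 to 0.0891, none over 0.1, and the numbers were not taken to pair the libraries. A correlation over all genes cannot show that the libraries were unpaired. With the replicate number as a block, the counts were 156 in cMoPs, 80 for list members and 11 for the difference of responses, and Snai1 lost its call. By voom with sample weights 11 of the 103 lost it (Ciita, Ear2, Ms4a4a, C5ar1, Maf, C3ar1, Epb41l1, Ccl7, Snai1, Flrt3 and Fabp4). Depth limits genes under about 1 CPM, where 1 read is worth 0.0151 to 0.0183 CPM in cMoPs. Without a library a group is 1 sample, assumed to vary like the other groups.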
